A study of Mus musculus with 5 samples.

Results

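Cycling immature thymocyte-like cells were the barcodes that carried T cell, thymocyte and proliferation transcripts together in 2 of the 5 single-cell RNA libraries of a murine small cell lung cancer (SCLC) treatment study. A barcode was counted when it held more than 150 genes, a mitochondrial share of at most 8%, at least 1 unique molecular identifier (UMI, a counted transcript molecule) of Dntt, Ptcra or Rag2, at least 1 of Cd3e, Cd3d, Cd3g, Trbc1 or Trbc2, no Chga or Chgb, and at least 2 UMIs of Mki67 and Top2a together. Members were thus chosen by their measured UMIs of these 12 genes. The rule found 3036 members among the 23513 barcodes of both libraries, 1796 of them with anti-PD-1 and 1240 with the combination in response, while the whole series held 86735 barcodes. They were compared with 6428 barcodes that met the same rule with 0 UMIs of Mki67 and Top2a, called non-cycling below, of which 1171 were in anti-PD-1 and 5257 in the combination in response. A further 793 barcodes held exactly 1 such UMI and were kept apart.

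The study treated mice with autochthonous SCLC to ask how an ERBB2 inhibitor (ERBB2i, mubritinib) and an antibody against the checkpoint receptor PD-1 change the tumor and its immune cells. All 5 libraries came from Rb1 fl/fl x Trp53 fl/fl mice in which inhaled adenoviral Cre had deleted both tumor suppressors in lung cells, so the deletion was also present in the vehicle group. Tumors reached a measurable lesion after about 6 months, treatment was then given every 3 days, with each agent of the combination at 10 mg/kg and the inhibitor by mouth, and vehicle was PBS. There was 1 library for each of vehicle, anti-PD-1, ERBB2i, the combination, and the combination in response. Treatment, animal and library therefore cannot be told apart, no difference between libraries or classes was tested, and the intervals given are 95% intervals that cover counting error only.

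In the thymus, progenitors first lack both coreceptors CD4 and CD8 (double-negative stage), rearrange the T cell receptor β chain and pair it with the invariant pre-T cell receptor α chain, the product of Ptcra. Signals from this pre-receptor start a burst of division, during which cells pass through an immature CD8 stage to the double-positive stage, where they stop dividing and rearrange the α chain. The δ chain gene Trdc lies inside the α chain locus and is removed when the α chain rearranges, while RAG2 and terminal transferase (Dntt) serve the recombination itself. In the GRCm38.p6 build Trdc lies at chr14:54142851-54146108 and the α chain constant gene Trac at chr14:54220521-54224198.

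Of the markers of the label, only Trdc was not used by the rule, so only Trdc checks it. Trbc2, a β chain constant gene that the rule used, was detected in 98.7% of members in anti-PD-1 and 98.6% in the combination in response. Trdc was detected in 51.4% (95% interval 49.1 to 53.8) and 60.6% (57.8 to 63.3), and Ptcra, also in the rule, in 28.9% and 36.6%. Mki67 and Top2a, which the rule used, were found in 95.6% and 92.3% of members in anti-PD-1 and in 93.9% and 91.0% in the combination in response. Tumor-like barcodes of anti-PD-1, with 3 or more UMIs of Chga and Chgb and a median of 3713 UMIs, held Trdc in 2.25% of cases at a depth close to that of the members, whose median was 3464 UMIs. The combination in response had no such barcodes, and its 105 B cell-like barcodes, with a median of 2872 UMIs, held Trdc in 16.2%, or in 2.86% after each barcode was thinned to 500 UMIs, against 16.4% of thinned members. Rag1, the partner of Rag2, was listed at 0 UMIs in all 5 libraries and so could not serve as a marker. The sample labels name lung tumor tissue and an epithelial cell type and name no thymus.

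The members were unevenly spread over the series. Among thymocyte-like barcodes of any Mki67 and Top2a count, 55.2% (53.5 to 57.0) of 3251 were cycling in anti-PD-1 and 17.7% (16.8 to 18.6) of 7006 in the combination in response. After thinning to 500 UMIs these shares were 20.9% of 2112 and 6.67% of 4839, so that the order of the libraries was kept at matched depth. Vehicle held 0 thymocyte-like barcodes, which allows a share of up to 0.0335% of its passing barcodes, ERBB2i held 13, of which 2 were cycling, and the combination held 4, of which 1 was cycling. The rule leaves out any barcode with a Chga or Chgb UMI, so thymocyte-like barcodes with such tumor RNA were not counted. How many each library lost in this way is not given here. Library totals ranged from 21624506 to 88497833 UMIs. Anti-PD-1 and the combination in response shared 79 barcode sequences, of which 11 were thymocyte-like and 2 were members in both.

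Members were much deeper than their non-cycling counterparts. Median UMIs per barcode were 3464 against 860 in anti-PD-1 and 5498 against 1158 in the combination in response, and median detected genes were 1639 against 570 and 2297 against 741. Levels are therefore given as CPM, the UMIs of a gene per 1000000 UMIs summed over all barcodes of a class. Each main result was also computed on barcodes of both classes that lay between the lower and upper quartile of the members' depth, which were 898 members and 71 non-cycling barcodes of 2349 to 5482 UMIs in anti-PD-1 and 620 and 186 barcodes of 3322 to 9210 UMIs in the combination in response. Scrublet, a doublet caller, marked 33 and 43 members. The study's additional filters, limits by median absolute deviation, kept 1724 of 1796 members in anti-PD-1 but only 743 of 1240 in the combination in response. They kept 1056 of 1171 and 4917 of 5257 non-cycling barcodes. Barcodes that failed these filters were kept in the main results.

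Cell cycle genes were higher in members almost throughout, in both libraries. Of 79 genes of G2 phase and mitosis, 76 were at least 2-fold higher in both libraries, and of 53 measured genes of S phase and DNA replication 48 were. The median log2 ratio of cycling over non-cycling CPM was 2.89 in anti-PD-1 and 4.38 in the combination in response for the G2 list, and 1.62 and 3.21 for the S phase list, against -0.23 and -0.38 over all genes. In the background of all genes with at least 50 UMIs, 7.63% of 9149 genes were at least 2-fold higher in anti-PD-1 and 12.4% of 10439 in the combination in response, and 6.37% of 8986 genes measured in both were higher in both. Since Mki67 and Top2a chose the members, these ratios describe the choice. The counts and medians above are from barcodes of all depths. They kept their sign among barcodes of matched depth, but not always their size. The S phase median in anti-PD-1 was 0.27 when matched barcodes also had to hold a Cd8a or Cd8b1 UMI. The plot of the ratios at all depths in both libraries shows both lists at the upper right.

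**Figure D1:**
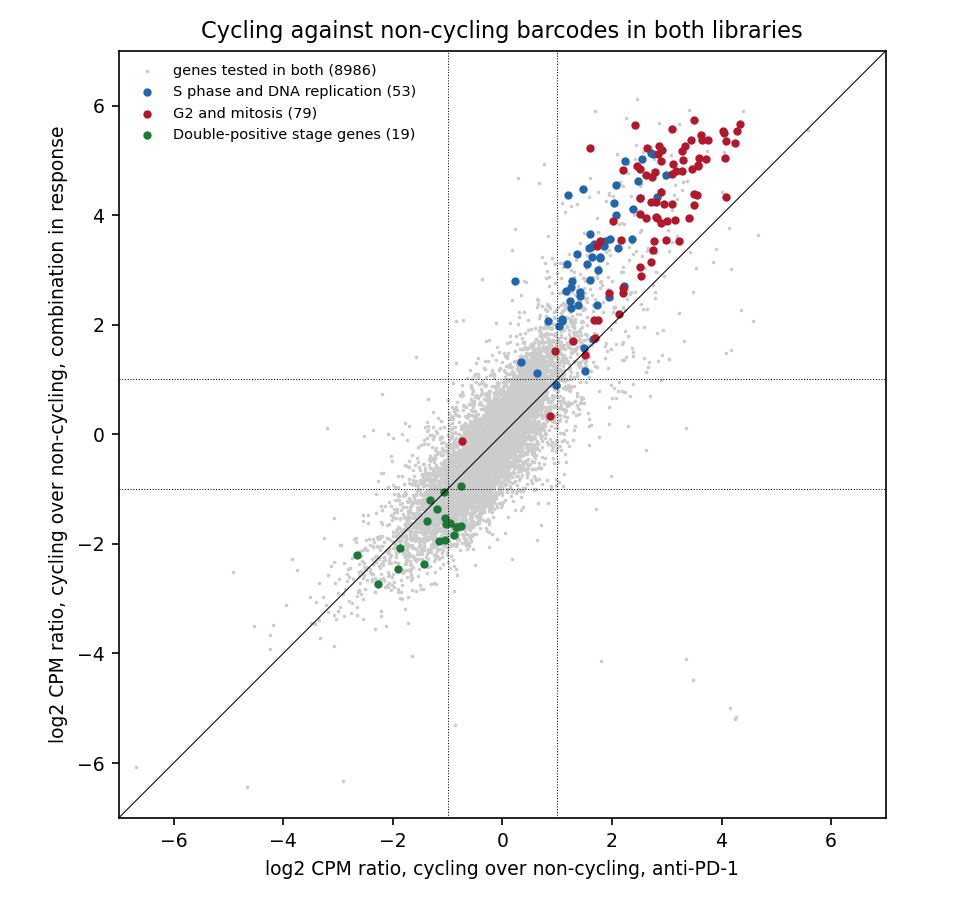
Log2 ratio of CPM in cycling over non-cycling barcodes for each of 8986 genes, in anti-PD-1 (x axis) and in the combination in response (y axis), with dotted lines at 2-fold and a solid line at equal ratios. Genes of S phase (blue) and of G2 and mitosis (red) lie mostly above 1 on both axes, and double-positive stage genes (green) lie below 0 on both when all depths are used, a side that anti-PD-1 did not keep at matched depth.

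Single genes followed the lists. Ube2c, the ubiquitin-conjugating enzyme that serves mitotic exit, stood at 1564 CPM in cycling and 116 CPM in non-cycling barcodes of anti-PD-1, and at 1291 and 31.2 CPM in the combination in response. The replication clamp gene Pcna stood at 873 and 261 CPM, and at 694 and 87.2 CPM. At matched depth the log2 ratios were 4.14 and 6.07 for Ube2c and 0.97 and 2.70 for Pcna. The matched Pcna ratio in anti-PD-1 was thus below 2-fold. Pcna was detected in 73.9% and 69.7% of members, so the remaining members had no UMI of it. Among the replicative helicase genes, the log2 ratio of Mcm5 was 1.62 and 3.41 and that of Mcm6 was 1.16 and 2.62. Rrm2, which makes deoxynucleotides, had ratios of 2.71 and 5.14. The members of the G2 list that were not 2-fold higher in both libraries were Smc4, a condensin subunit, at 0.87 and 0.34, Ube2s at 0.96 and 1.52, and the securin gene Pttg1 at -0.73 and -0.13. Counts of genes with near-identical copies, among them Gapdh, the replication-dependent histones, and the paired constant genes Trbc1 and Trbc2 or Trgc1 and Trgc2, depend on how shared reads were assigned and are uncertain.

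Non-cycling barcodes of anti-PD-1 held more of these transcripts than those of the combination in response, with the S phase list at 4107 and 1547 CPM. Tumor-like barcodes, which were present in anti-PD-1 and absent by the same definition from the combination in response, held Ube2c at 1012 CPM and Pcna at 678 CPM. Summed over the tumor marker list without Chga and Chgb, which the rule set to 0, non-cycling barcodes of anti-PD-1 stood at 205 CPM, or 10.8% of the level in tumor-like barcodes, and members at 89.8 CPM, or 4.75%. In the combination in response the sums were 29.7 and 19.3 CPM. The part of free tumor RNA in the smaller ratios of anti-PD-1 was not tested.

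The promoters of 4 of these genes are printed as examples of short motifs that cell cycle promoters can carry. They were picked for holding the motifs, and not all genes did: Nusap1, Plk1 and Ccnb1 had no CHR, and Pcna, Mcm3 and Rrm2 no E2F motif in the same window. Each line gives the 250 bases before a transcript start in RefSeq's GRCm38.p6 annotation, 5′ to 3′ on the strand of the gene. Capitals mark the cell cycle homology region (CHR, TTTGAA), the CCAAT box (CCAAT) and the E2F motif (TTTCGCGC or TTTGGCGC), searched on both strands. The start used for Mcm5 lies inside the gene, whose annotated span begins at chr8:75109468.
Ube2c, chr2:164769679-164769928, plus strand: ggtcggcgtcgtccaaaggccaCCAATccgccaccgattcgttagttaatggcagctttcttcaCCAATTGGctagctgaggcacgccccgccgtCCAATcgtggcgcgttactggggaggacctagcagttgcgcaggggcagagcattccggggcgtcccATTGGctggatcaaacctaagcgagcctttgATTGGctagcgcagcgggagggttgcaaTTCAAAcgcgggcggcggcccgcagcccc
Cdc20, chr4:118437344-118437593, minus strand: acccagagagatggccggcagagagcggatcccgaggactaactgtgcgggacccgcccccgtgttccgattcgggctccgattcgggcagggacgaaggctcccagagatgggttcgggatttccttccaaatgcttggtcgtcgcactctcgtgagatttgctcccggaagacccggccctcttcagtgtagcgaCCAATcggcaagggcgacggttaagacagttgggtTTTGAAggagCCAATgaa
Mcm5, chr8:75109259-75109508, plus strand: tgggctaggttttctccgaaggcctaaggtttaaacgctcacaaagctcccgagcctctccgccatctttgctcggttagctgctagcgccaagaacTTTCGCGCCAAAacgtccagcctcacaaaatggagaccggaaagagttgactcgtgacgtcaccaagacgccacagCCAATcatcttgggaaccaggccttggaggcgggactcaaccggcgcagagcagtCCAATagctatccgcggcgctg
Mcm6, chr1:128359706-128359955, minus strand: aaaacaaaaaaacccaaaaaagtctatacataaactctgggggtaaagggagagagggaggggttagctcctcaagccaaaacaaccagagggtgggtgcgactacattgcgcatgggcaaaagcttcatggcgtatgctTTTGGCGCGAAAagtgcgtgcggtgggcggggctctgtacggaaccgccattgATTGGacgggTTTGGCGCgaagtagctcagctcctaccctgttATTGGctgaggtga
In Ube2c the CHR lies on the opposite strand with 6 CCAAT boxes upstream, 2 of them overlapping. Cdc20, which activates the anaphase-promoting complex, had 1 CHR and 2 CCAAT boxes. Mcm5 had 2 overlapping E2F motifs and Mcm6 had 3, of which 2 overlapped, and neither had a CHR.

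Across promoters of 250 bases before to 50 after the start, a CHR was present in 63.6% of the 66 G2 list genes with a promoter, in 32.8% of the 466 genes at least 2-fold higher in both libraries, in 14.9% of 7226 genes measured in both and in 20.2% of all 27025 genes with a promoter. Without the bases after the start these shares were 33.3%, 23.8%, 13.2% and 18.3%. A CCAAT box was present in 74.2%, 59.9%, 44.1% and 41.1% of the same sets. The E2F motif was found in 6.06%, 7.51%, 2.23% and 0.929%. For the S phase list and for the genes lower in both libraries fewer than 80% of members had a promoter entry, 42 of 54 and 919 of 1174, so the check was void for them. The motif matches describe letters in a window and were not tested.

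The 10 genes with the largest consistent ratio were all cell cycle genes by textbook role or list: Nusap1, Aurkb, Sgo1, Plk1, Mxd3, Ube2c, the histone gene H3c2, Ccnf, Ckap2l and Ccna2. The spindle protein gene Nusap1 stood at 748 and 36.9 CPM in anti-PD-1 and at 804 and 15.9 CPM in the combination in response, with log2 ratios of 4.34 (3.94 to 4.78) and 5.66 (5.39 to 5.93). Aurkb, the kinase of the chromosomal passenger complex, had ratios of 4.08 and 5.36. Mxd3, a partner of MAX in the MYC network, had ratios of 4.05 and 5.15. Of 28 measured histone, chromatin and tubulin genes, 22 were at least 2-fold higher in both libraries, where 6.37% of all genes were. Among the 22, the chromatin protein gene Hmgb2 stood at 3660 against 729 CPM and 3883 against 224 CPM.

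Of 31 measured cyclins, cyclin-dependent kinases, E2F factors, Rb family members and related genes, 11 were at least 2-fold higher in both libraries, where 6.37% of all genes were, and 3 were at least 2-fold lower, where 13.1% were. The atypical repressor E2f8 had log2 ratios of 3.23 and 5.67, Foxm1 of 2.52 and 4.58, and Rbl1, which encodes p107, stood at 73.7 against 24.8 CPM and 113 against 39.9 CPM. The lower genes were Cdkn1b, which encodes the inhibitor p27, at -1.29 and -1.16, Rbl2, which encodes p130, at -1.21 and -1.62, and the progenitor factor Myb at -1.15 and -1.48. Ccnd3, the cyclin used by dividing thymocytes, stood at 1394 against 1283 CPM and 1227 against 1360 CPM at all depths, and at 1699 against 717 CPM and 1634 against 468 CPM at matched depth. Myc stood at 96.3 against 61.7 CPM and 173 against 53.2 CPM, and at matched depth its ratio was -2.07 and -1.50.

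Of 35 measured genes of ribosome assembly, glycolysis, sterol and nucleotide synthesis, 8 were at least 2-fold higher in both libraries and 0 were lower. Of all genes measured in both, 6.37% were higher and 13.1% lower. The median log2 ratios of the list were 0.75 and 1.60, against -0.23 and -0.38 over all genes, and at matched depth -0.39 and 0.11. The genes with the largest ratios at all depths served one-carbon metabolism, and their ratios at matched depth are not given here. Shmt1 stood at 61.0 against 15.0 CPM and 68.1 against 5.72 CPM, and Shmt2 had log2 ratios of 1.65 and 2.86 and Mthfd2 of 1.28 and 2.60.

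Genes of the double-positive stage were lower in members than in non-cycling barcodes at all depths, and this order did not hold at matched depth in anti-PD-1. Of 19 measured genes, 13 were at least 2-fold lower in both libraries and 0 were higher, with median log2 ratios of -1.07 and -1.69. The background was 16.6% of genes at least 2-fold lower in anti-PD-1, 28.3% in the combination in response and 13.1% in both. At matched depth the medians were 0.81 and -0.090. The matched non-cycling barcodes differed from non-cycling barcodes of all depths, since 40.8% and 31.2% of them held no coreceptor UMI, against 10.2% and 7.36%. Among the members beside them the shares were 5.23% and 2.90%. When matched barcodes were also required to hold a Cd8a or Cd8b1 UMI, which left 851 against 39 and 600 against 118, the medians were 0.72 and -0.27. The direction of a stage gene against non-cycling barcodes thus depended on which barcodes were compared.

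The coreceptor and recombination genes give the values behind this. Cd4 stood at 154 against 578 CPM in anti-PD-1 and at 154 against 848 CPM in the combination in response, with log2 ratios of -1.90 (-2.04 to -1.77) and -2.46. Its ratios at matched depth were 2.33 (1.45 to 3.40), with 10 UMIs in the non-cycling barcodes, and 0.23 (-0.00079 to 0.48). Cd8b1 stood at 1200 against 2984 CPM and 991 against 2278 CPM, and its matched ratios were 1.22 and 1.21. Rag2, which the rule used, stood at 157 against 345 CPM and 149 against 440 CPM, with matched ratios of 0.81 and 0.51. Between the libraries, members differed little in Cd4 and Rag2, and Cd8b1 was lower in the combination in response. Ccr9, the receptor for a chemokine of thymic epithelium, stood at 167 against 810 CPM and 165 against 1104 CPM, with matched ratios of 0.61 and -0.89. Ptcra, also in the rule, stood at 118 against 135 CPM and 113 against 113 CPM, with matched ratios of 0.29 (-0.31 to 0.95) and -0.87 (-1.11 to -0.63).

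**Figure D2:**
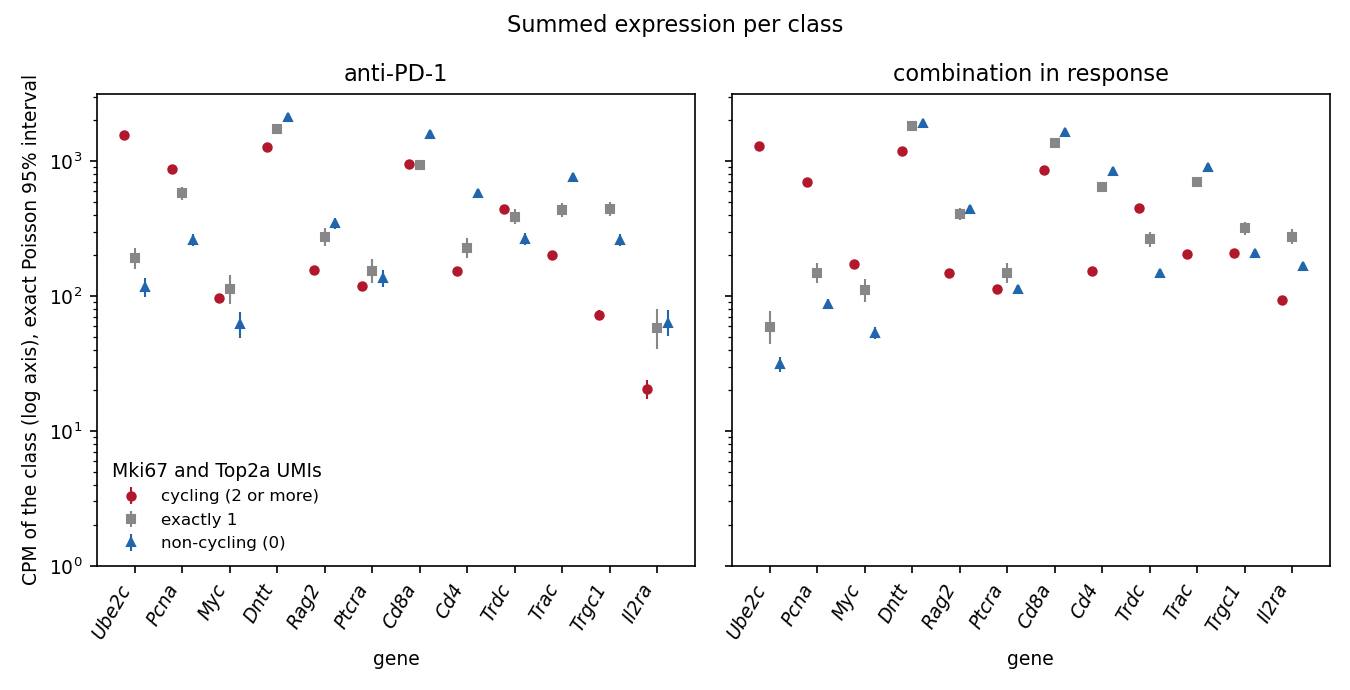
CPM (log axis) of 12 genes summed over cycling, exactly 1 UMI and non-cycling barcodes in anti-PD-1 (left) and the combination in response (right), with exact Poisson 95% intervals. Ube2c, Pcna, Myc and Trdc are highest or nearly so in cycling barcodes, and Cd4, Rag2 and Trac are highest in non-cycling barcodes at all depths. At matched depth the order turned for Myc and Rag2 in both libraries, for Cd4 and Trac in anti-PD-1 and for Trdc in the combination in response. Intervals included 0 for Cd4 in the combination in response, at 0.23 (-0.00079 to 0.48), and for Trdc in anti-PD-1, at -0.095 (-0.37 to 0.20).

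Other T cell lists had medians below 0 when barcodes of every depth were used, and several turned at matched depth. The counts below are of genes measured in both libraries, while each all-depth median was taken over the genes measured in that library. In anti-PD-1 and the combination in response these were 28 and 30 receptor genes and 14 and 18 maturation genes. For the apoptosis list they were 12 and 14 genes, and for the γδ list 6 and 10. Of 28 measured genes of receptor chains and signalling, 12 were at least 2-fold lower in both libraries and 0 higher, with median ratios of -1.05 and -1.02, against 13.1% of all genes lower in both. At matched depth its median in anti-PD-1 was 0.21. Of 14 measured genes of maturation and egress, 6 were at least 2-fold lower in both and 0 higher, and here the medians of -1.49 and -1.52 kept their sign at matched depth, at -1.26 and -2.99. Klf2, which controls exit from the thymus, stood at 14.9 against 57.2 CPM and 36.0 against 131 CPM. Of 12 measured apoptosis genes, Bid was at least 2-fold higher in both libraries, and Bcl2, Mcl1, Bcl2l11, Bbc3 and Fas were at least 2-fold lower. Of 11 measured genes of recombination and end joining, only Rag2 was at least 2-fold lower in both, and of 17 double-negative stage genes 3 were, shares near that background. At matched depth the recombination medians were 0.58 and 0.31 and the apoptosis medians 0.084 and 0.44. Of the 6 measured γδ lineage genes and the 4 measured checkpoint and target genes, 0 passed 2-fold in both. At matched depth the γδ medians were -1.63 and -3.69, and the γ chain constant genes were lower in members, with Trgc1 at 64.2 against 1066 CPM and 86.3 against 1307 CPM. The rule used 2 genes of the recombination list and 6 of the receptor list. Under TMM scaling, a trimmed mean of ratios that shifts the median of all genes, the recombination median in anti-PD-1 turned from -0.38 to 0.091, and in the combination in response the apoptosis median turned from -0.44 to 0.034 and the γδ median from -0.12 to 0.36.

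That scaling changed the balance of calls, and so did depth. At matched depth, more genes were at least 2-fold higher than lower in members of both libraries. With totals as the scale and barcodes of all depths, 572 genes were at least 2-fold higher and 1174 lower in members of both libraries. With TMM scaling, 1259 were higher and 435 lower, as the median over all genes moved from -0.23 to 0.23 in anti-PD-1 and from -0.38 to 0.094 in the combination in response. The S phase, G2, histone and double-positive list medians kept their sign. At all depths, the 10 genes with the largest consistent ratio on the lower side were Tcp11l2, Slfn5, Slc6a19, Gm40841, Insl5, Gm15340, Zfyve28, Patj, BC065403 and Inpp4b. Their log2 ratios ran from -4.54 to -3.01 in anti-PD-1 and from -3.65 to -2.97 in the combination in response. Ratios of these genes at matched depth are not given here. Tcp11l2, the first of these 10 genes, stood at 4.92 against 92.5 CPM and 11.1 against 140 CPM.

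The δ and α chain genes went opposite ways at all depths. Trdc stood at 439 CPM in members and 265 CPM in non-cycling barcodes of anti-PD-1, and at 449 and 148 CPM in the combination in response, with log2 ratios of 0.73 (0.57 to 0.89) and 1.60. Trac stood at 199 and 764 CPM, and at 204 and 903 CPM, with ratios of -1.94 and -2.15. Thinned to 500 UMIs, Trdc was detected in 17.2% of members and 6.75% of non-cycling barcodes in anti-PD-1, and in 16.4% and 3.75% in the combination in response, while Trac was detected in 11.1% and 27.8%, and in 12.6% and 30.7%. Within the matched depth range the Trdc ratios were -0.10 and -0.35 and the Trac ratios 0.67 and -0.73. With a Cd8 UMI also required, Trdc was at -0.24 and 0.07 and Trac at 0.25 and -1.22, so only the lower Trac of the combination in response kept its direction in each of these comparisons.

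The combination of both chains per barcode was also described. Trdc without Trac was found in 30.4% of members in anti-PD-1 and 26.2% in the combination in response, against 9.74% and 4.83% of non-cycling barcodes. Trac without Trdc was found in 19.5% and 20.9% of members and in 37.7% and 45.4% of non-cycling barcodes. Both were found in 21.0% and 34.4% of members. These shares rest on depth: thinned to 500 UMIs, members held Trdc alone in 15.4% and 14.6%, Trac alone in 9.30% and 10.8% and both in 1.78% and 1.77%, against 6.06% and 2.72%, 27.1% and 29.6%, and 0.683% and 1.03% of non-cycling barcodes. Members with Trac alone held Cd4 at 239 and 296 CPM, and those with Trdc alone at 122 and 104 CPM. Constant region transcripts do not show whether a chain was productively rearranged.

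Levels were also set out by the number of Mki67 and Top2a UMIs, and of the lists and genes plotted only the G2 list was higher in every next bin in both libraries. Barcodes just outside the rule, with exactly 1 such UMI, numbered 284 and 509 and had median depths of 1457 and 1353 UMIs. Those just inside, with exactly 2, numbered 138 and 124 and had median depths of 2018 and 1501 UMIs. From 1 to 2 UMIs the S phase list went from 9383 to 12379 CPM in anti-PD-1 and from 2775 to 6272 CPM in the combination in response. The G2 list reached 26421 and 25069 CPM above 10 UMIs, where the S phase list stood at 12893 and 12527 CPM. Trac stood at 180 CPM at 3 to 5 UMIs and 207 CPM above 10 in anti-PD-1, and in the combination in response it went from 273 to 184 CPM over the same bins.

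**Figure D3:**
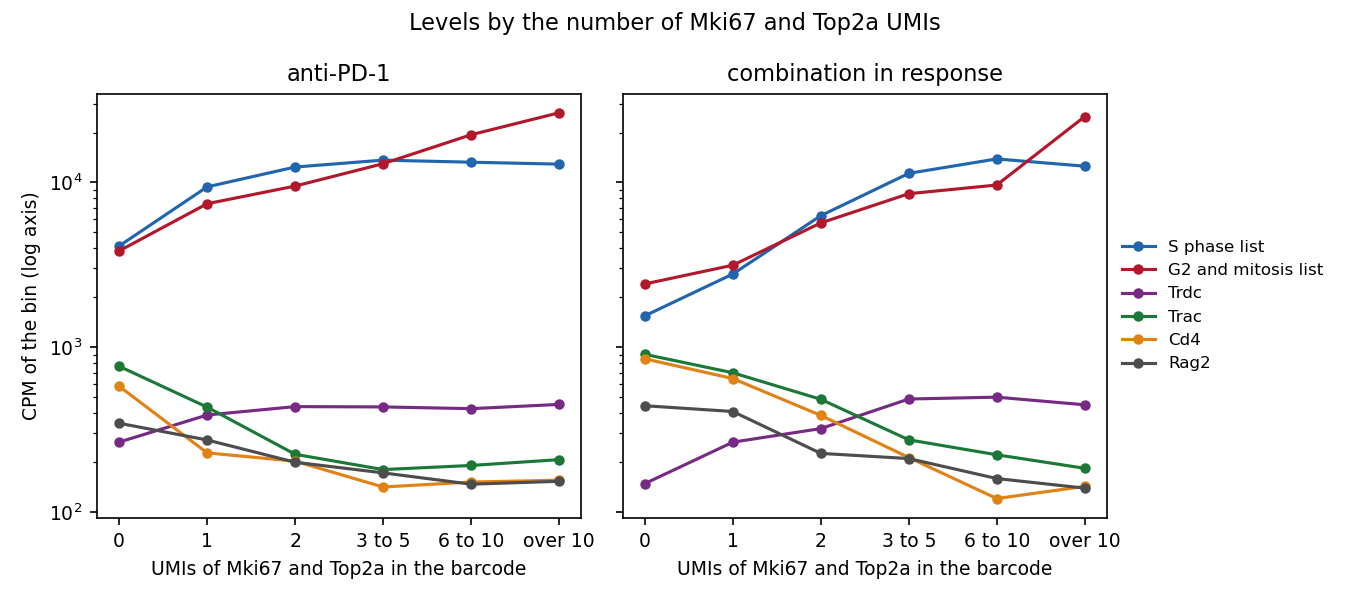
CPM (log axis) of the S phase and G2 lists and of Trdc, Trac, Cd4 and Rag2 by the number of Mki67 and Top2a UMIs in a barcode, in anti-PD-1 (left) and the combination in response (right). The G2 list reaches 26421 and 25069 CPM above 10 UMIs, and Trac and Cd4 are highest at 0 UMIs, while depth grows with the bin, from a median of 860 to 4298 UMIs in anti-PD-1.

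Most members held coreceptor transcripts. Barcodes with Cd8a or Cd8b1 but no Cd4 made up 973 members in anti-PD-1 and 528 in the combination in response, barcodes with both coreceptors 691 and 646, those with neither 124 and 56, and those with Cd4 alone 8 and 10. In B cell-like barcodes of the combination in response, Cd8b1 was detected in 50.5%, Cd8a in 41.0% and Cd4 in 30.5%, and in tumor-like barcodes of anti-PD-1 in 9.06%, 6.91% and 3.44%, so a single UMI does not show that a cell expressed a coreceptor. Detection depends on depth, and after thinning to 500 UMIs both coreceptors were seen in 7.91% and 10.2% of members and neither in 33.8% and 34.1%. The members with neither had median depths of 5975 and 4162 UMIs against 3071 and 5125 UMIs for members with both.

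Some genes of the double-negative stage and the γ chain genes were highest in members with neither coreceptor. Il2ra, the CD25 gene of that stage, stood in them at 128 and 560 CPM, against 5.49 and 34.3 CPM in members with both coreceptors. Trgc1, a γ chain constant gene, stood at 488 and 1163 CPM against 11.4 and 65.6 CPM, and the Notch target Hes1 at 149 and 425 CPM against 6.66 and 42.0 CPM. Ptcra and Notch3 did not follow, with Ptcra at 66.0 and 96.5 CPM against 122 and 122 CPM and Notch3 at 7.47 and 16.5 CPM against 11.8 and 15.3 CPM. In the other direction, Rag2 stood at 26.1 and 57.9 CPM against 253 and 216 CPM. Trac followed Rag2, at 39.8 and 79.9 CPM against 278 and 274 CPM. For Il2ra, Trgc1, Hes1, Rag2 and Trac the ordering was the same in both libraries, with the Cd8 only class between the others. Ptcra in anti-PD-1, at 125 CPM with Cd8 only, stood above members with neither and with both. So did Notch3 in the combination in response, at 17.1 CPM with Cd8 only.

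Trdc hardly varied among members with neither coreceptor, with Cd8 only and with both. Members with Cd4 alone, 8 and 10 barcodes, held less Trdc, at 198 CPM from 4 UMIs and 260 CPM from 30 UMIs. In the other classes Trdc stood at 461, 438 and 435 CPM with neither coreceptor, Cd8 only and both in anti-PD-1, and at 504, 435 and 464 CPM in the combination in response. Non-cycling barcodes with both coreceptors held 179 and 90.9 CPM, and those with neither 475 and 475 CPM, so the gap between cycling and non-cycling barcodes lay in the classes with coreceptors. Trac in members with both coreceptors was 278 and 274 CPM, and in their non-cycling counterparts 992 and 964 CPM. These classes were not matched for depth, since non-cycling barcodes with both coreceptors had medians of 879 and 1214 UMIs.

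**Figure D4:**
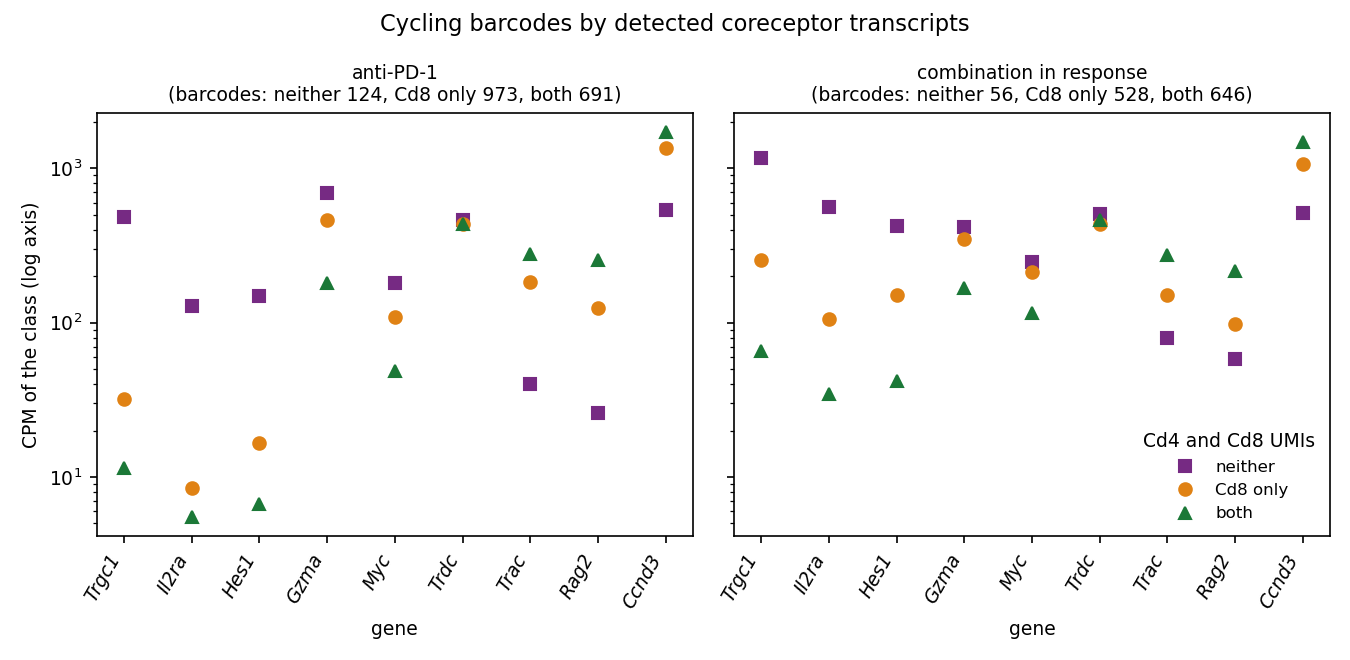
CPM (log axis) of selected genes in members with neither coreceptor, with Cd8 only and with both, in anti-PD-1 (left) and the combination in response (right). Trgc1, Il2ra, Hes1, Gzma and Myc are highest in members with neither coreceptor, Trac, Rag2 and Ccnd3 are highest in members with both, and Trdc lies between 435 and 504 CPM in all 6 classes.

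Gzma, the gene of a cytotoxic granule protease, was detected in members although other effector genes were scarce. It was detected in 41.1% and 39.4% of members, against 15.3% and 8.67% of non-cycling barcodes, in 2.09% of tumor-like barcodes of anti-PD-1 and in 15.2% of B cell-like barcodes of the combination in response. Thinned to 500 UMIs, the shares were 9.69% and 7.50% in members and 8.03% and 3.73% in non-cycling barcodes. At matched depth Gzma was lower in members, at 232 against 622 CPM and 141 against 406 CPM, with log2 ratios of -1.42 (-1.68 to -1.15) and -1.52, so its direction also depended on which barcodes were compared. It stood at 696 and 419 CPM in members with neither coreceptor, at 461 and 347 CPM with Cd8 only and at 181 and 168 CPM with both. Nkg7, another granule gene, was detected in 1.89% and 5.81% of members. Gzma made up 3030 of 3234 UMIs of the list of natural killer and mature effector markers in anti-PD-1 and 2385 of 2794 in the combination in response.

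The share of cycling barcodes by coreceptor class was compared after thinning, with at least 1 UMI of Mki67 or Top2a as the mark. In anti-PD-1 the mark was held by 43.0% (38.3 to 47.8) of barcodes with neither coreceptor, 40.5% with Cd8 only and 24.5% (20.3 to 29.1) with both. In the combination in response it was held by 18.7%, 15.8% and 7.40%. Barcodes with Cd4 alone held it in 57.1% of 49 and 6.67% of 270 cases. Among the 3 classes other than Cd4 alone, the share was lowest with both coreceptors in each library, and each of the 4 classes had a higher share in anti-PD-1 than in the combination in response.

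Members spanned S phase to mitosis. The S phase list made up a median of 36.6% of the S phase and G2 list UMIs of a barcode in anti-PD-1 and 33.9% in the combination in response, and 574 (32.0%) and 383 (30.9%) members held more S phase than G2 UMIs. Nearly all held both, at 98.9% and 97.3%. The distribution had no clear gap, with 23.2% and 19.9% of members between 40% and 60%. After thinning, 31.1% and 31.3% held more S phase UMIs.

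**Figure D5:**
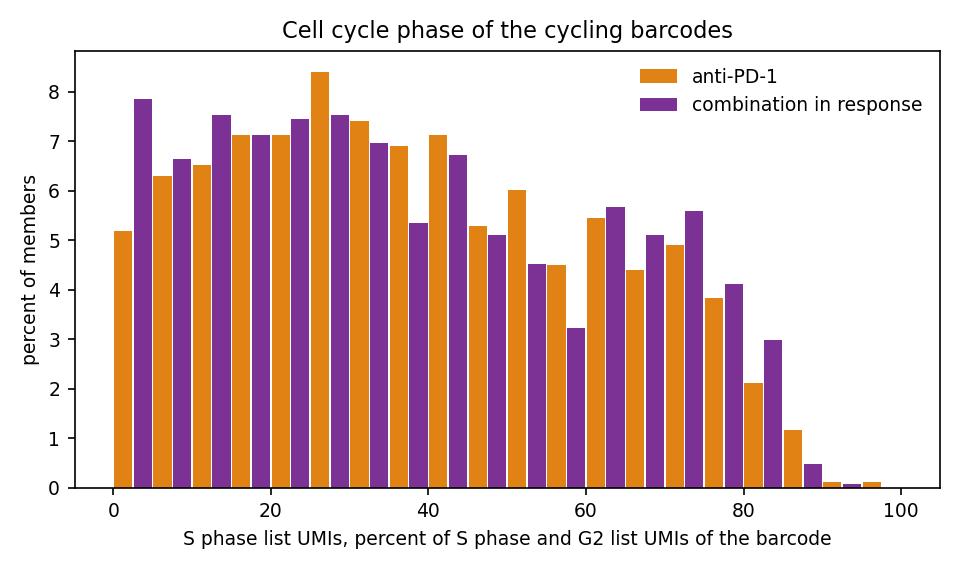
Percent of members (y axis) by the share of S phase list UMIs among the S phase and G2 list UMIs of a barcode (x axis), for anti-PD-1 (orange) and the combination in response (purple). Both libraries have most members below 50%, with medians of 36.6% and 33.9%, and the bars run from S-poor to S-rich barcodes without a gap. The G2 list is the longer, so 50% is not a neutral point.

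The phase of a member differed with its coreceptor class. The median S phase share was 52.6% and 58.8% in members with neither coreceptor, 42.4% and 40.9% with Cd8 only and 26.2% and 27.2% with both. Members above 60%, 392 and 292 barcodes, were set against those below 40%, 987 and 697 barcodes. Mki67 and Top2a, which chose the members, stood at 720 against 1629 CPM and 655 against 1718 CPM in anti-PD-1. In the combination in response they stood at 680 against 2045 CPM and 779 against 2284 CPM. The spread of phases among members therefore depends on the rule. Cd4 stood at 78.5 against 226 CPM in anti-PD-1 and at 92.9 against 210 CPM in the combination in response. Rag2 stood at 79.6 against 224 CPM and 75.4 against 207 CPM, while Ptcra stood at 172 against 94.0 CPM and 139 against 96.6 CPM. Trdc was 447 against 467 CPM and 454 against 450 CPM, with intervals of the log2 ratio of -0.18 to 0.06 and -0.10 to 0.12. Whether Rag2, Cd4 and Ptcra go with the phase or with the coreceptor class was not tested.

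Members of the 2 libraries were then compared with each other. Of 9964 genes, 5.59% were at least 2-fold higher in the combination in response and 2.64% were at least 2-fold lower. The number of higher genes, 557, was 350 under TMM scaling, 1100 with the study's additional filters and 1293 among members of 1000 to 4000 UMIs. None of the 53 S phase and 79 G2 genes differed 2-fold, with medians of 0.05 and 0.11 on the log2 scale against 0.22 over all genes. The 10 genes highest in the combination in response by the rule of size were Taco1, Ppp1r15a, Nr4a1, Sik1, Xlr3b, Gimap8, Il2ra, Olfr275, Inpp4b and Hes1. Taco1 stood at 299 against 20.8 CPM. Nr4a1, an immediate early gene of receptor signalling, stood at 70.3 against 5.44 CPM, and Ppp1r15a, a stress response gene, at 86.4 against 6.60 CPM. The non-cycling barcodes of the same libraries held Nr4a1 at 183 and 24.8 CPM and Taco1 at 307 and 23.3 CPM, so these differences were not particular to members. With 1 library a group, treatment and library cannot be told apart.

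The double-negative genes Il2ra and Hes1 were higher in members of the combination in response within every main coreceptor class. Il2ra was 93.4 against 20.3 CPM over all members, and in the Cd8 only class 106 against 8.50 CPM. Hes1 was 115 against 27.1 CPM over all members and 151 against 16.5 CPM in the Cd8 only class. Trgc1, at 208 against 72.6 CPM, and Trgc2, at 292 against 110 CPM, went the same way. Non-cycling barcodes of the same libraries held Il2ra at 165 against 63.2 CPM and Hes1 at 169 against 68.5 CPM. The Il2ra and Hes1 differences were therefore not particular to members. In non-cycling barcodes of all depths Trgc1 stood at 207 against 260 CPM and Trgc2 at 220 against 263 CPM, the other way. At matched depth non-cycling barcodes held Trgc1 at 1307 against 1066 CPM and Trgc2 at 1337 against 963 CPM, the same way as members. Within classes non-cycling Trgc1 was 1218 against 1194 CPM with neither coreceptor, 168 against 120 with Cd8 only and 40.7 against 2.20 with both. The γ chain differences were therefore not shown to be particular to members. Trdc at 449 and 439 CPM and Cd4 at 154 and 154 CPM were level between the libraries.

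The 10 genes lowest in the combination in response were Mt1, Uchl1, Bex1, Camk2n1, Ddc, Bex2, Gm1673, Csrp2, Selenom and Syt1. Each stood higher in tumor-like barcodes of anti-PD-1 than in its members, from 220 to 5256 CPM. Mt1, a metallothionein, was 2.91 CPM in the combination in response and 318 CPM in anti-PD-1, and Uchl1, a neuroendocrine gene, was 1.12 and 20.2 CPM. The part of free tumor RNA in these differences was not tested.

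Markers of other cell types were also found in members. B cell markers held 5815 and 5050 UMIs, or 753 and 565 CPM, in 77.6% and 78.5% of members, of which Ighm made up 5342 and 4654, and the highest barcode held 516 and 605 UMIs of the list. Erythroid markers held 5393 UMIs in anti-PD-1, of which 5207 lay in 1 barcode, and 1006 in the combination in response, in 42.3% of its members. Myeloid markers held 119 and 502 UMIs, with 298 of the latter in 1 barcode, and tumor markers held 694 and 172, with 8 and 7 of the 10 genes detected. Plasma cell markers held 2017 and 903 UMIs, led by Jchain in anti-PD-1 and Xbp1 in the combination in response. Dendritic cell markers held 2983 and 4957 UMIs, led by Cd74 with 1968 and 2760, in 39.5% and 32.9% of members. Of 13 thymic stroma markers, 10 and 9 were detected with 454 and 633 UMIs, led by the endothelial gene Pecam1 with 355 and 504, while the thymic epithelial factor Foxn1 had 0 and 2 UMIs and Krt5 had 0 in both. The part of these cell types in the ratios was not tested. Without barcodes that held 10 or more UMIs of haemoglobin, collagen or decorin genes, the S phase, G2 and double-positive list medians kept their sign.

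The targets of the treatments and of the model were near the lower limit or present. Erbb2 had 0 UMIs in members of both libraries, which allows up to 0.477 and 0.413 CPM at the upper Poisson bound. Pdcd1, which encodes PD-1, stood at 8.15 CPM in anti-PD-1 and 12.7 CPM in the combination in response and was detected in 2.78% and 6.29% of members. Rb1 stood at 81.3 and 120 CPM and Trp53 at 131 and 164 CPM, so UMIs assigned to both genes deleted in the tumor model were found in these barcodes. Counts per gene do not separate deleted from intact alleles, and the part of free RNA in them was not tested.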

How the data were processed

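Single-cell RNA libraries of murine SCLC tissue were made on a microfluidic chip. The deposited tables held UMI counts per gene and barcode, not normalized, which the authors produced with CeleScope according to the study's methods, while the submitters' processing notes name Cell Ranger, Scanpy and mm10. The version of CeleScope and the treatment of strand and of reads matching several genes were not given in the sources used here. Barcodes were selected as described and UMIs were summed per class and library (numpy 2.4.6, scipy 1.17.1, pandas 2.3.3). Genes with at least 50 UMIs over both classes were compared, and 2-fold was the limit for a call. A class at 0 was set to 3 counts, so such ratios are bounds. Intervals were exact Poisson, conditional or Clopper-Pearson intervals at 95%. Doublets were kept and marked with Scrublet (scanpy 1.11.5). Thinning drew 500 UMIs per barcode.

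Genes were named as markers, as members of gene lists by role or size of ratio, and as the 10 genes in each direction with the largest ratio in the library where it was smaller, with at least 50 UMIs in the higher and 10 in the lower class, or 100 in the higher class between libraries. The members and lists were chosen with earlier results of these data known. The summing and interval steps were tested on simulated data. Alternatives were other UMI limits, scalings, minimum counts, depth ranges, doublet removal and the study's filters by median absolute deviation. RefSeq names matched 97.4% of 10681 genes, and promoters came from RefSeq, GRCm38.p6. There was 1 library a group, so no test was run. Some genes are not reported here.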

Additional observations from a re-analysis of the deposited data

Results flagged for a closer look

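The 4 adult haemoglobin genes had opposite ratios of cycling over non-cycling barcodes in the 2 libraries, and the difference was not tested. In anti-PD-1 the log2 ratio was 4.16 for Hba-a1, 4.25 for Hba-a2, 3.47 for Hbb-bs and 3.34 for Hbb-bt, and in the combination in response it was -5.00, -5.19, -4.48 and -4.09. A single cycling barcode of anti-PD-1 held 1921 of the 1978 UMIs of Hba-a1 and 1858 of the 1936 UMIs of Hbb-bs, and a single non-cycling barcode of the combination in response held 2342 of 7003 and 2778 of 9006.

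The rule found 13 thymocyte-like barcodes in ERBB2i, a library outside the comparisons above. They made up 0.0495% of its passing barcodes, where a count of 0 in vehicle allows up to 0.0335% there. These are 2 single libraries and a difference between them was not tested.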

How the results depend on the processing

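No paired analysis was possible because each group had 1 library. Among the alternatives' values for the results that answer a comparison, 98 stayed within the limits set, 43 moved and 2 turned.

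With barcodes of exactly 1 Mki67 or Top2a UMI as the cycling class, 54 genes were higher and 14 lower in both libraries, the S phase median in the combination in response was 0.93, the G2 medians were 1.03 and 0.68 and the double-positive median in the combination in response was -0.27, while the maturation median (0.49), double-negative median (0.14), γδ median (0.84) and Il2ra (0.74) turned in the combination in response, and the γδ median (0.49) and Trgc1 (0.77) in anti-PD-1. TMM scaling gave 1259 and 435 genes and double-positive medians of -0.60 and -1.21. A minimum of 10 UMIs gave 1974 lower genes and one of 200 gave 486. The matched depth range gave 360 and 159 genes and double-positive medians of 0.81 and -0.090, and there these also changed sign: the receptor list (0.21), biosynthesis (-0.39) and Trac (0.67) in anti-PD-1, and in both libraries recombination (0.58 and 0.31), apoptosis (0.084 and 0.44), Trdc (-0.095 and -0.35), Cd4 (2.33 and 0.23), Cd8a (1.63 and 1.504), Cd8b1 (1.22 and 1.21) and Myc (-2.07 and -1.50), while Trgc1 in the combination in response moved from 0.0043 to -3.92. With a Cd8a or Cd8b1 UMI also required, chosen after seeing the data, there were 292 and 87 genes, the S phase median in anti-PD-1 was 0.27, the double-positive medians were 0.72 and -0.27, and Trac (0.25), Cd4 (2.27), Trdc (-0.24), biosynthesis (-0.50) and the double-negative list (0.089) in anti-PD-1, apoptosis (0.17) in the combination in response, and recombination (0.44 and 0.11), Cd8a (0.83 and 0.86), Cd8b1 (0.42 and 0.56) and Myc (-1.85 and -1.26) in both changed sign. With the study's additional filters Myc in the combination in response was at -0.053. The cause was not tested.

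The cycling shares were 64.0% and 24.96% with at least 1 UMI, 51.0% and 15.9% with at least 3, 20.9% and 6.67% after thinning, 62.3% and 21.9% with at least 2 UMIs of Dntt, Ptcra and Rag2, and 12.1% in the combination in response with the additional filters. Between the libraries, 350 genes were higher with TMM scaling, 284 higher and 84 lower with a minimum of 200 UMIs, 1100 and 475 with the additional filters, 1293 higher among members of 1000 to 4000 UMIs, and 280 and 72 without genes higher in tumor-like barcodes, an alternative chosen after seeing the data. Thinned, both coreceptors were found in 7.91% and 10.2% of members, neither in 33.8% and 34.1% and Trdc in 17.2% and 16.4%. The CHR was in 23.8% of promoters higher in both when only the bases before the start were searched.

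The S phase, G2, histone and cyclin list medians, Ube2c and Pcna kept their sign in all 12 alternatives, with the S phase median in anti-PD-1 between 0.27 and 2.15. Depth limits the stage genes, since only 71 and 186 non-cycling barcodes lay between the lower and upper quartile of the members' depth. A gene absent from a barcode may only have been missed.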

Other observations

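Across the 8986 genes measured in both libraries, the log2 ratios of cycling over non-cycling barcodes had a Pearson correlation of 0.85 between anti-PD-1 and the combination in response, and of 0.82 without the cell cycle lists. The points are genes, not independent replicates, and the rule fixed the direction of many of them. Of the genes at least 2-fold higher in anti-PD-1, 82.4% were also higher in the combination in response, and 45.8% the other way round. Of those at least 2-fold lower, 80.9% and 56.4% were shared in the same order.

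There were 8 genes at least 2-fold in opposite directions, named after their values were seen: the 4 haemoglobin genes and the immunoglobulin genes Igha, Ighg2b, Iglc1 and Iglv1. Igha held 562 UMIs in cycling barcodes of anti-PD-1, of which 547 lay in 1 barcode, and 8854 in non-cycling barcodes of the combination in response, of which 8708 lay in 1 barcode.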
